A study of Mus musculus with 9 samples.

Results

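Myelin is described here through 9 genes, found by gene symbol, a rule that uses no measured value although earlier results of these data were known when the list was made: Mbp, Mog, Mag, Mobp, Cnp, Cldn11, Mal, Opalin and Ermn. All 9 were found among the 54532 genes of the deposited tables, and all 9 passed the filter on low values in every comparison. RNA was sequenced from the hippocampi of 9 mice, male by label and protocol, with 3 mice in each of 3 groups. Con mice were wild type by label and ate standard chow. HMD mice ate a high-methionine diet for 8 weeks, which raises homocysteine, a product of methionine. Bet+HMD mice ate that diet for 8 weeks and then drank betaine at 2.5% (w/v) for 2 weeks, betaine being a methyl donor that turns homocysteine back into methionine. All groups were C57BL/6 mice bought at 6 to 8 weeks of age per the protocol, whereas the strain labels of the Bet+HMD samples number on from C57BL/6 in 2 of 3 cases. Whether the diet went on while betaine was given is not stated in the sources used here, and no group received betaine on standard chow. Con and HMD expression levels stood in both an earlier and a later table, and Bet+HMD levels in the later table only.

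Myelin is the multilayered membrane that oligodendrocytes wrap around axons so that impulses travel fast. In the hippocampus it is sparse in the neuronal layers and dense in the overlying and output fibre tracts, the alveus and fimbria. An oligodendrocyte precursor leaves the cell cycle, passes through a short premyelinating stage and then switches on the genes of the sheath under transcription factors such as Sox10, Olig2 and Myrf. The 9 genes belong to this last stage and serve several places in the sheath.

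Some of the proteins shape the compact membrane from within or between its layers. Mbp (ENSMUSG00000041607, chr18:82475146-82585637 on GRCm38, plus strand) encodes myelin basic protein, which binds the cytoplasmic faces of the membrane together. Mobp (ENSMUSG00000032517, chr9:120149707-120181484, plus strand) encodes a second small basic protein of the cytoplasmic face. Cldn11 (ENSMUSG00000037625, chr3:31149920-31164324, plus strand) encodes the claudin of the tight junctions between layers. The surface and the axon side are served by others. Mog (ENSMUSG00000076439, chr17:37010743-37023398, minus strand) encodes a glycoprotein of the outermost layer, the myelin autoantigen of demyelinating disease. Mag (ENSMUSG00000036634, chr7:30899176-30914873, minus strand) encodes an adhesion protein of the innermost layer that faces the axon. Opalin (ENSMUSG00000050121, chr19:41062474-41077113, minus strand) encodes a sialylated membrane protein of the loops beside the nodes. The remaining genes act in the cytoplasm and in membrane traffic. Cnp (ENSMUSG00000006782, chr11:100574904-100591729, plus strand) encodes a cyclic nucleotide phosphodiesterase that keeps cytoplasmic channels open. Mal (ENSMUSG00000027375, chr2:127633226-127656695, minus strand) encodes a proteolipid for sorting proteins to the myelin membrane. Ermn (ENSMUSG00000026830, chr2:58045113-58052864, minus strand) encodes ermin, an actin-binding protein of late oligodendrocytes.

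Depth was similar across the series, from 16031464 to 18291952 reads assigned to genes per library in the later table and from 16449388 to 18566712 in the earlier one. Genes with any read numbered 25315 to 25663 in the Bet+HMD libraries and 20816 to 23272 in the other libraries of the later table. A member held between 216 and 53298 reads in a library, so counting error was small beside the spread between mice for the higher members. Xist stood at 0.0449 FPKM or less and Ddx3y at 12.7 to 21.2 FPKM in all 9 libraries, which matches the male label, although the study's methods name female mice. The marker genes of the hippocampus Prox1, Neurod6 and C1ql2 were expressed in all 9 libraries, Prox1 at 11.4 FPKM or more, and the list of 7 such markers summed to 164 to 219.5 FPKM in the later table. The 10 marker genes of the thalamus, which borders the hippocampus, summed to 28.8 to 38.0 FPKM in Con and to 50.4 to 113.8 FPKM in HMD in the earlier table, with the highest sum in HMD replicate 1. The Bet+HMD libraries were deposited later than the others and no date of preparation is given, so that betaine treatment and handling cannot be told apart.

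Levels are given as FPKM, fragment counts scaled to the length of the gene and to the depth of the library, which allows comparison between genes. Mbp ranked highest of the 9 with 253.7 ± 100.3 FPKM in Con (mean ± SD, n = 3, later table), followed by Mobp with 123 ± 47.5 FPKM. Mal, Cldn11 and Cnp lay close together with 101.3 ± 20.8, 87.6 ± 15.8 and 85.1 ± 23.1 FPKM, differences smaller than their spread. Mog reached 39.7 ± 8.53 FPKM, Mag 26.6 ± 7.61 FPKM and Ermn 19.1 ± 4.45 FPKM. Opalin was lowest with 11.7 ± 4.69 FPKM. In this order the Con ranges of neighbours overlapped, with 2 exceptions: every Con library of Mbp exceeded every Con library of Mobp, and every Con library of Cnp exceeded every Con library of Mog. Together the 9 genes took 0.299% to 0.571% of the assigned reads of a library.

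The 5′ flanks of the genes were examined next, because some of the 9 genes fell together in the Bet+HMD libraries while others did not. RefSeq sequences of GRCm38.p6 were matched by symbol for 8 of the 9 genes, all but Mbp, and the 250 bases before the RefSeq start were searched on both strands. The motif ACAAAG, read as CTTTGT from the other strand and the core that SOX factors such as Sox10 bind, was present in the flanks of 4 genes: Mobp, Cnp, Mag and Opalin. In 32851 promoters of the same length, 16.5% held the motif at least once. Mobp held 6 copies, at -243, -231, -221, -198, -132 and -120 from the start. That count, the highest of the 8 flanks, set the cutoff. The 0.00304% of promoters that reached it, Mobp itself included, is therefore a description only. Cnp held 1 copy at -167, Mag 1 at -126 and Opalin 1 at -139. A motif of Myrf (CTGGCAC or CTGGTAC) was found in the flanks of Cnp, Mag and Mog, beside 5.93% of all promoters. The E-box CAGCTG, a core that Olig2 and related factors bind, was in none of the 8, beside 13.0% of all promoters. Among the genes that fell, Cnp alone held the SOX motif, while Mog, Mal and Cldn11 held none. Among the genes that were not called, Mobp, Mag and Opalin held it and Ermn did not. Whether the motif goes with the fall was not tested, since these same data split the few genes. Both kinds of flank are shown, with Mobp and Mag standing for genes that did not pass the test and Cnp, Mog, Mal and Cldn11 for those that fell. The flanks of Opalin and Ermn are not shown. SOX motifs are in capitals, each sequence runs 5′ to 3′ on the strand of its gene, and bases inside the gene as the deposited tables draw it are left off.
The flank of Mobp lies at chr9:120149492-120149706 on the plus strand, with all 6 motifs in the CTTTGT reading.
Mobp: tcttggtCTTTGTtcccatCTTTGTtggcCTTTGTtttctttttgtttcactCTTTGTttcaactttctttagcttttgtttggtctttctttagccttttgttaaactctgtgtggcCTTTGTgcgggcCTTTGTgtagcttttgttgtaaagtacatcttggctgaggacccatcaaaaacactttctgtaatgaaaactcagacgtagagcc
The flank of Cnp lies at chr11:100574689-100574903 on the plus strand.
Cnp: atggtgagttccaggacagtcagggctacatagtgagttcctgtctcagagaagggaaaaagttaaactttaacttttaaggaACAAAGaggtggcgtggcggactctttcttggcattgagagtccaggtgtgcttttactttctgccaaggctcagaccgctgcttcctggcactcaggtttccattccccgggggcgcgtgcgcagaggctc
The flank of Mag lies at chr7:30914874-30915113 on the minus strand, before 1 of 3 RefSeq starts.
Mag: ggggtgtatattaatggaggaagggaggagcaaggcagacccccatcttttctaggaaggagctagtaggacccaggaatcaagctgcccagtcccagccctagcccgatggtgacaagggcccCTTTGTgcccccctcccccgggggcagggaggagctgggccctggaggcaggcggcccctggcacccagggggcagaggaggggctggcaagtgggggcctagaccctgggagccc
The flank of Mog lies at chr17:37023399-37023648 on the minus strand.
Mog: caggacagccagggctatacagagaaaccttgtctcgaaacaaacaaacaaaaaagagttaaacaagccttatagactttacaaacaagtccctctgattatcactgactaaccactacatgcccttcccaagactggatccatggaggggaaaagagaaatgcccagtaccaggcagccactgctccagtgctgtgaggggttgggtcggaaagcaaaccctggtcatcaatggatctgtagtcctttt
The flank of Mal lies at chr2:127656696-127656945 on the minus strand.
Mal: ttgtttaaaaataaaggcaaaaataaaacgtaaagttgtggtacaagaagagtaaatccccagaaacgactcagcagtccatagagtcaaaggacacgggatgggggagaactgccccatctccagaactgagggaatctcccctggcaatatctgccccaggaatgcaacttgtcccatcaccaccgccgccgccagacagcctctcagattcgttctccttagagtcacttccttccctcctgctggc
The flank of Cldn11 lies at chr3:31149670-31149919 on the plus strand.
Cldn11: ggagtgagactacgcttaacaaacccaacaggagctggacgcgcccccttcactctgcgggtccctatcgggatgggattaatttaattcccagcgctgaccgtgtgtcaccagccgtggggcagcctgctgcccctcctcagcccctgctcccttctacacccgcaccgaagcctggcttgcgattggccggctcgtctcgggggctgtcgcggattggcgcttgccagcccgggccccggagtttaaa

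To ask whether excess methionine alone altered the myelin genes, the earlier table was used to set HMD against Con. The diet groups were not told apart by any of the 9 genes. Limma's test was passed by 0 of 9 at an adjusted p under 0.05, 0 of 9 had an unadjusted p under 0.05, and limma voom on recovered reads also called 0. Among all 12989 genes tested 0% were called and 4.56% had an unadjusted p under 0.05, with a smallest adjusted p of 0.124. The groups overlapped for all 9 genes, while 9.37% of all genes tested did not overlap. The median log2 fold change of the 9 was 0.04, beside -0.00 over all genes. Here and below, log2 fold changes are of FPKM + 1, with n = 3 per group.

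The spread between mice was wide in this comparison. Mbp measured 190.1, 198 and 360.2 FPKM in Con replicates 1 to 3 and 286, 190.2 and 269 FPKM in HMD replicates 1 to 3. The difference of 0.04 ± 0.273 on the log2 scale (± SE, limma adjusted p = 0.993) had a 95% interval from -0.60 to 0.67. Con replicate 3 alone exceeded every HMD library. Opalin showed the largest difference of the 9, with 8.24, 9.23 and 16.6 FPKM in Con against 8.70, 7.29 and 7.07 FPKM in HMD. The log2 difference of Opalin, -0.45 ± 0.237, missed the threshold (limma, adjusted p = 0.980), and its groups overlapped. The other 7 genes had log2 fold changes between -0.07 for Mag and 0.15 for Cldn11.

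One Con library carried much of that spread. Con replicate 3 was the highest of the Con libraries for 8 of the 9 genes, all but Cldn11, and Con replicate 1 was the lowest for all 9. In the later table Con replicate 3 exceeded the mean of the other Con libraries 1.90-fold for Opalin, 1.89-fold for Mbp and 1.85-fold for Mobp, but 1.11-fold for Cldn11. Without Con replicate 3, the log2 difference of Mbp between HMD and Con was 0.33 and that of Opalin was -0.17, with neither called.

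**Figure D1:**
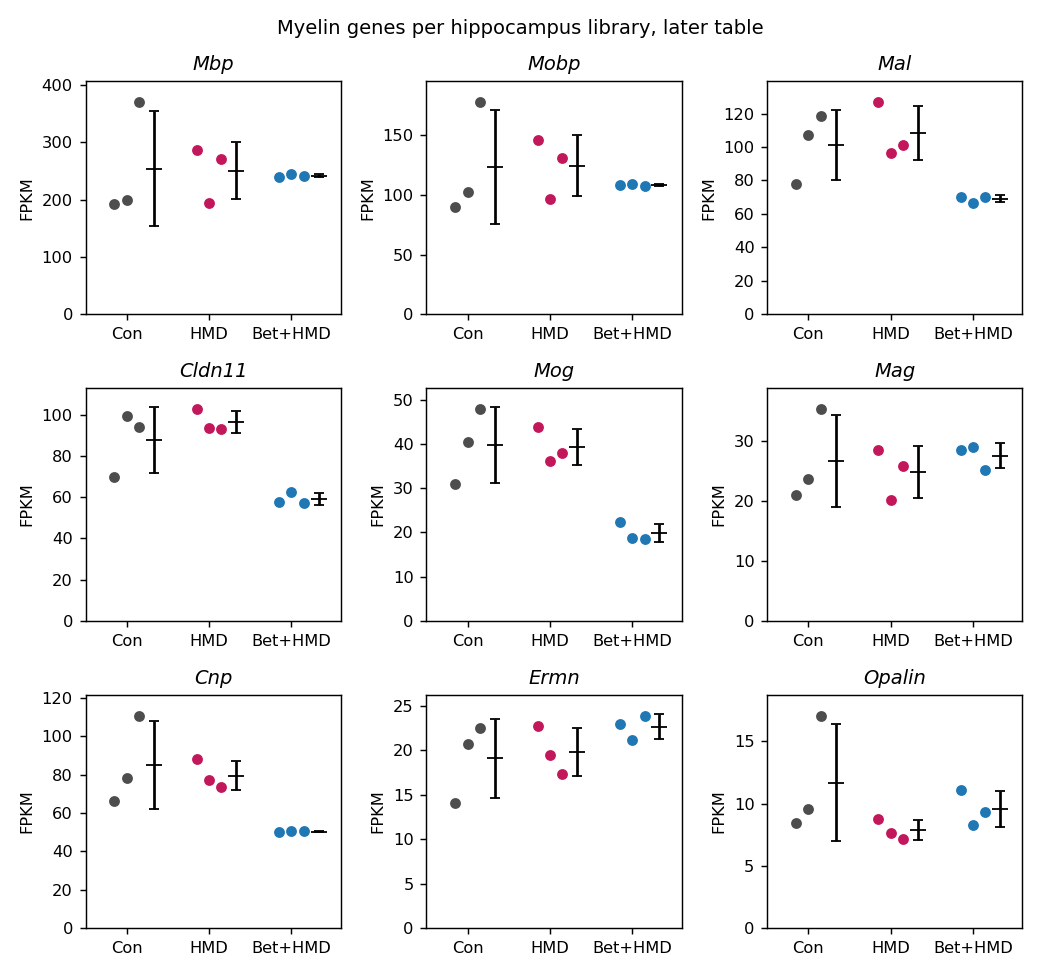
FPKM of each of the 9 myelin genes in the 9 hippocampus libraries of the later table, on linear axes from 0. Coloured points are libraries in order of replicate number, and the black bar and whiskers are the mean ± SD of 3 libraries. In Mog, Cnp, Cldn11 and Mal all Bet+HMD libraries lie below all others, whereas in Mbp, Mobp, Mag, Opalin and Ermn the groups overlap.

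Bet+HMD was set against HMD in the later table, a comparison in which betaine treatment and the handling of the libraries cannot be told apart. Mog, Cldn11, Cnp and Mal fell, and Mbp, Mobp, Mag, Opalin and Ermn did not pass the test in either direction. Thus 4 of 9 genes were lower and 0 were higher at an adjusted p under 0.05. Calls were common in this comparison: 48.3% of the 13672 genes tested passed, 25.5% lower and 22.8% higher. The median log2 fold change of the 9 was -0.18, beside -0.03 over all genes. In bulk tissue, fewer oligodendrocytes and less RNA per oligodendrocyte cannot be told apart.

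Mog, the surface glycoprotein, fell most. It measured 43.8, 36.1 and 37.9 FPKM in HMD and 22.3, 18.6 and 18.6 FPKM in Bet+HMD. Every Bet+HMD library was below every HMD library, as for 31.8% of all genes tested, and limma put the log2 difference at -0.95 ± 0.104 (± SE, adjusted p = 0.000475). Cldn11, the junction protein, measured 102.6, 93.5 and 93.0 FPKM in HMD and 57.8, 62.6 and 57.3 FPKM in Bet+HMD. No libraries overlapped, and the log2 difference was -0.69 ± 0.0739 (adjusted p = 0.00042).

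Cnp and Mal fell by similar amounts. Cnp measured 88.1, 77.04 and 73.3 FPKM in HMD against 49.96, 50.6 and 50.4 FPKM in Bet+HMD, a log2 difference of -0.65 ± 0.0824 (adjusted p = 0.000847). The Bet+HMD libraries of Cnp differed by less than 1 FPKM among themselves. Mal measured 126.7, 96.6 and 101.2 FPKM in HMD against 70.2, 66.6 and 70.3 FPKM in Bet+HMD, a log2 difference of -0.63 ± 0.108 (adjusted p = 0.00302). Neither gene overlapped between the groups. The span of Cnp overlaps that of Dnajc7 on the opposite strand, a gene with 979 to 1902 reads per library. Whether their exons overlap was not examined and the use of strand in counting is not stated, so the value of Cnp is uncertain to that extent.

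Mbp, the gene of highest level, measured 286, 194 and 271 FPKM in HMD and 239, 244 and 241 FPKM in Bet+HMD. Its Bet+HMD libraries lay within the HMD range, and the log2 difference of -0.03 had a 95% interval from -0.37 to 0.31 (limma, adjusted p = 0.869). Mobp measured 146, 96.6 and 131 FPKM in HMD and 108, 109 and 107 FPKM in Bet+HMD, a log2 difference of -0.18 with an interval from -0.52 to 0.16. Both basic protein genes were tight in Bet+HMD and wide in HMD. The Bet+HMD libraries as such lay closer together, with pairwise chi-square, scaled by degrees of freedom, from 3.00 to 4.21. Between HMD libraries it ran from 11.8 to 22.2. The closeness in Mbp, Mobp and Cnp therefore cannot be read as a trait of these genes. Mag measured 28.5, 20.1 and 25.9 FPKM in HMD and 28.4, 29.0 and 25.1 FPKM in Bet+HMD, a log2 difference of 0.15 with an interval from -0.15 to 0.46. Opalin measured 8.74, 7.67 and 7.15 FPKM against 11.1, 8.24 and 9.34 FPKM, a log2 difference of 0.25 with an interval from -0.03 to 0.53. The lowest Bet+HMD library of Opalin lay below the highest HMD library. Ermn measured 22.7, 19.4 and 17.3 FPKM against 22.9, 21.1 and 23.9 FPKM, a log2 difference of 0.19 with an interval from -0.06 to 0.44.

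Calls depended in part on scaling and on 1 library. With values rescaled to TPM, which moved the median of all genes from -0.03 to 0.16 and the share of calls that were higher from 47.2% to 69.5%, Opalin (0.46, adjusted p = 0.0179) and Ermn (0.39, adjusted p = 0.0226) were also called, higher. Under quantile normalisation Mal was lost (adjusted p = 0.0965) and Ermn was called higher (0.37, adjusted p = 0.0289), and without HMD replicate 2 Mbp (-0.21, adjusted p = 0.0235) and Mobp (-0.35, adjusted p = 0.0068) were called lower.

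**Figure D2:**
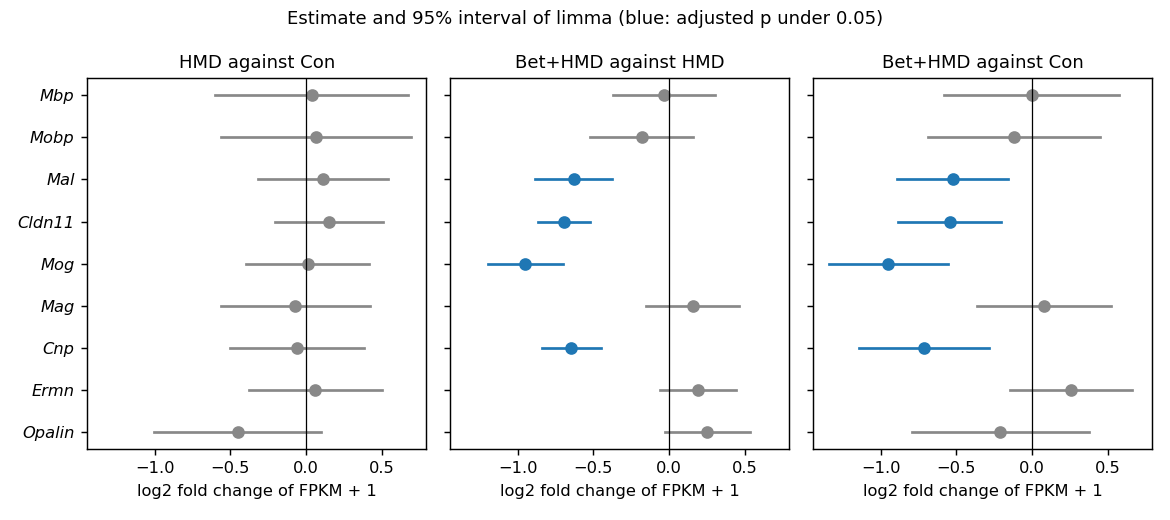
Log2 fold change of FPKM + 1 with its 95% limma interval for each myelin gene in HMD against Con (left, earlier table), Bet+HMD against HMD (middle) and Bet+HMD against Con (right, both later table). Blue marks an adjusted p under 0.05. All 9 intervals hold 0 on the left, while Mal, Cldn11, Mog and Cnp lie below 0 in the middle and on the right.

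Bet+HMD was then set beside Con, which shares the Bet+HMD libraries with the comparison above. Mog, Cnp, Cldn11 and Mal were again the genes that fell, 4 of 9 lower and 0 higher, where 39.7% of the 13643 genes tested were called, 20.4% lower and 19.4% higher. Mog measured 30.9, 40.5 and 47.9 FPKM in Con, and limma put its log2 difference at -0.95 ± 0.166 (± SE, adjusted p = 0.00501). Cnp measured 66.2, 78.3 and 110.7 FPKM in Con, with a log2 difference of -0.71 ± 0.180 (adjusted p = 0.0198). For all 4 genes every Bet+HMD library was below every Con library, as for 29.0% of all genes tested.

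Cldn11 measured 69.7, 99.2 and 94.1 FPKM in Con, a log2 difference of -0.54 ± 0.143 (limma, adjusted p = 0.023). Mal measured 78.1, 107.4 and 118 FPKM in Con, a log2 difference of -0.53 ± 0.156 (adjusted p = 0.0347). Con replicate 1 came nearest to Bet+HMD for all 4 genes. Of the genes that were not called, Mbp measured 193, 199 and 369 FPKM in Con, and its log2 difference of -0.00 had an interval from -0.58 to 0.58. Mobp (-0.12), Mag (0.08), Opalin (-0.21) and Ermn (0.26) had intervals that held 0 as well.

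This comparison held less firmly than that with HMD. Without Con replicate 3, Mbp (0.30, adjusted p = 0.0145) and Mag (0.29, adjusted p = 0.0477) were called higher and Mal was lost (adjusted p = 0.0543), whereas without any 1 of the Bet+HMD libraries 1 member, Mog, was called. Under TPM, which moved the median of all genes from -0.04 to 0.17 and the share of calls that were higher from 48.8% to 73.5%, and under quantile normalisation, 1 member was called, again Mog. Mal was also lost without Con replicate 2 (adjusted p = 0.0779) and with no filter on low values (adjusted p = 0.0705).

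To compare members within a library, each was also expressed as a percent of Mbp, a description chosen after the values were seen. Cnp ran from 27.0% to 39.8% of Mbp in HMD, from 29.97% to 39.3% in Con and from 20.7% to 20.9% in Bet+HMD. Mog ran from 14.0% to 18.6% of Mbp in HMD, from 13.0% to 20.3% in Con and from 7.64% to 9.31% in Bet+HMD. Both therefore stood lower against Mbp in each Bet+HMD library than in any other library. Mobp varied least, running from 46.7% to 51.4% in Con, from 48.2% to 51.1% in HMD and from 44.6% to 45.3% in Bet+HMD. Against HMD, 5 of the 8 percents (Cldn11, Cnp, Mal, Mobp and Mog) were lower with no overlap and 1 (Mag) was higher, where 21.9% of all genes were lower and 22.7% higher when divided by Mbp. Against Con, 4 of 8 (Cnp, Mal, Mobp and Mog) were lower with no overlap, where 11% of all genes were lower. Cldn11 overlapped with Con, since it stood at 25.5% of Mbp in the lowest Con library and at 25.6% in the highest Bet+HMD library.

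Between HMD and Con, 1 of the 8 percents did not overlap, where 2.98% of all genes did not. This was Opalin, at 4.37% to 4.79% of Mbp in Con and at 2.64% to 3.96% in HMD in the later table. In Bet+HMD it stood at 3.38% to 4.64% of Mbp, overlapping with both.

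**Figure D3:**
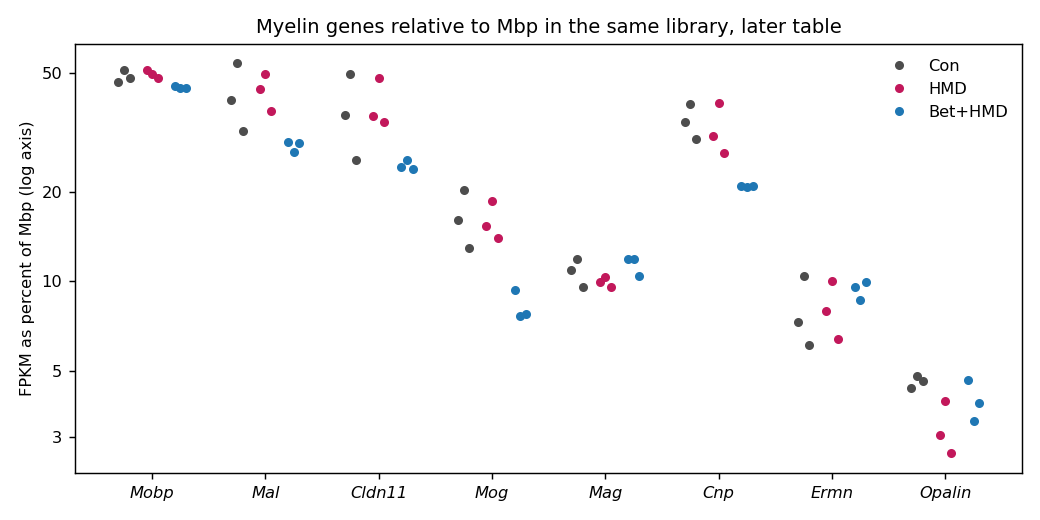
FPKM of the 8 other myelin genes as percent of Mbp in the same library, on a log axis, for the 3 libraries of each group in the later table. Mobp stays between 44.6% and 51.4% in all 9 libraries. Mog, Cnp, Mal and, by a small margin, Mobp lie below all Con and HMD libraries in Bet+HMD.

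Gene length and base composition overlapped between the genes that fell and the others. The genes that fell had lengths of 1704 (Mog), 1870 (Cldn11), 2778 (Mal) and 3639 bases (Cnp), and the others had 1838 (Opalin), 3635 (Ermn), 4072 (Mag), 6849 (Mobp) and 8403 bases (Mbp). The longest 3, Mbp, Mobp and Mag, were all among the genes that were not called. GC content of the longest coding transcript was 48.9% to 55.8% in the genes that fell and 38.0% to 57.6% in the others.

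Over the 9 libraries of the later table, the mean profile of the 9 genes was highest in Con replicate 3, at 0.50 log2 units above its mean, and lowest in Con replicate 1, at -0.23, with the Bet+HMD libraries between -0.22 and -0.15. Mobp, Mal and Cnp followed this mean profile most closely, with root mean square differences of 0.139, 0.164 and 0.191 log2 units, and Mog departed most, with 0.317. Of 6620 other genes ranked by the same measure over 9 libraries, the closest included Arsg (0.0432), Emc8 (0.103), Car2 (0.103), Denr (0.104) and Slc38a10 (0.105). Car2 encodes a carbonic anhydrase of oligodendrocytes. Arsg encodes a lysosomal sulfatase. Such likeness includes whatever the libraries share, such as scaling and tissue composition.

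Other genes of myelin were followed in a list of 24, of which 23 were tested. Between HMD and Con 0 of 23 were called by limma, 3 had an unadjusted p under 0.05, limma voom called 0, and the median log2 fold change was -0.06. Between Bet+HMD and HMD 8 of 23 were lower and 3 were higher, a share close to the 48.3% called among all genes (25.5% lower, 22.8% higher), with a median of -0.15. Cd9, a tetraspanin, fell from 22.8 ± 1.42 to 11.5 ± 1.41 FPKM (log2 difference -0.93 ± 0.101, adjusted p = 0.000454). Tspan2, another tetraspanin of myelin, fell by 0.62 on the log2 scale and Plekhb1 by 0.57.

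The 3 that rose against HMD were Nfasc, Hapln2 and Tppp, the last 2 of which were chosen after their values were seen. Nfasc, neurofascin of the nodes and paranodes, rose from 16.2 ± 1.60 to 24.5 ± 0.208 FPKM (log2 difference 0.57 ± 0.0824, adjusted p = 0.00147). Hapln2, a link protein of the nodal matrix, rose by 0.50 and Tppp, a tubulin-binding protein of oligodendrocytes, by 0.23. Against Con, where 39.7% of all genes were called, 7 of 23 were lower and 3 were higher, the latter being Hapln2 (0.93), Nfasc (0.50) and Cntn2 (0.50), a juxtaparanodal adhesion molecule. Without any 1 of the Bet+HMD libraries 7 of 23 were called against HMD and 4 or 5 against Con, and without Con replicate 2 the count against Con was 5.

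Of the 8 genes of myelin lipid synthesis, 2 were lower and 0 higher in Bet+HMD than in HMD, beside 25.5% lower and 22.8% higher among all genes. The 2 were Gal3st1, the sulfatide synthase (-0.61, adjusted p = 0.0254), and Degs1, a ceramide desaturase (-0.51, adjusted p = 0.00912). Against Con, 2 were lower and 1 was higher, beside 20.4% lower and 19.4% higher among all genes. Between HMD and Con 0 of 8 were called (0 at an unadjusted p under 0.05, 0 by limma voom). Of 4 genes of peripheral myelin 1, Pmp22, which is also expressed outside nerve, was expressed highly enough to be tested. Pmp22 was lower in Bet+HMD than in HMD (-0.47 ± 0.0878, adjusted p = 0.0042), and was not called against Con (-0.21) or between HMD and Con (0.26), although every HMD library lay above every Con library.

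Of 9 transcription factors of the lineage 2 were lower and 1 was higher in Bet+HMD than in HMD, beside 25.5% lower and 22.8% higher among all genes. Nkx6-2, a homeodomain factor of mature oligodendrocytes, fell from 4.97 ± 1.18 to 1.99 ± 0.110 FPKM (log2 difference -0.98 ± 0.148, adjusted p = 0.00173), and Olig1 fell from 53.6 ± 11.2 to 32.2 ± 1.95 FPKM (-0.70 ± 0.149, adjusted p = 0.0076). Sox10, the factor that stands above most myelin genes, rose from 9.30 ± 1.51 to 12.2 ± 0.453 FPKM (0.37 ± 0.114, adjusted p = 0.0314). Against Con, Nkx6-2 (-0.79) and Olig1 (-0.47) were lower and Myrf (0.39, adjusted p = 0.00625) was higher, while Sox10 was not called (0.06).

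Calls among genes of earlier stages were no more frequent than among all genes. Of all genes tested, 25.5% were called lower and 22.8% higher against HMD, and 20.4% lower and 19.4% higher against Con. Of 6 genes of newly formed oligodendrocytes 1, Gpr17, a receptor of premyelinating cells, was called against HMD, higher (0.41 ± 0.0736, adjusted p = 0.00347), and 0 of 6 against Con (limma, 1 at an unadjusted p under 0.05, as for 49.6% of all genes). Of 9 precursor genes 2 were lower, Pdgfra, the growth factor receptor that marks the stage (-0.37), and Lhfpl3 (-0.59), and 1 was higher, Cspg4, the proteoglycan NG2 (0.52). Against Con, Pdgfra (-0.32) and C1ql1 (-0.70) were lower and Cspg4 (0.52) was higher.

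**Figure D4:**
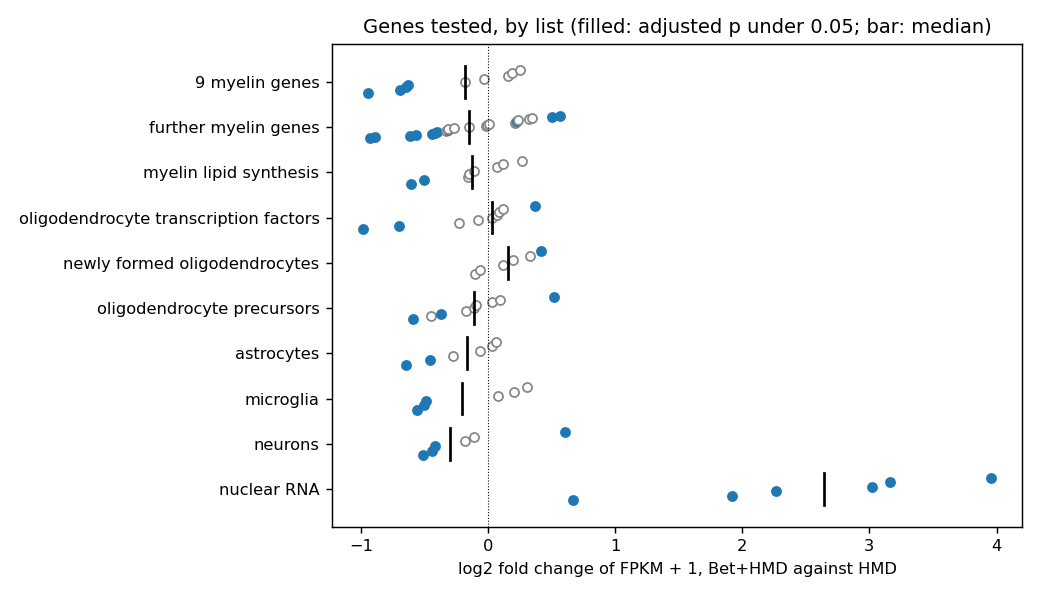
Log2 fold change of FPKM + 1 in Bet+HMD against HMD for each gene tested, by list, with the list median as a black bar. Filled points passed an adjusted p of 0.05. The 9 myelin genes run from -0.95 to 0.25, and 6 of 6 nuclear RNAs lie to the right, with a median of 2.64.

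Other markers moved in Bet+HMD against HMD, where 25.5% of all genes tested were called lower and 22.8% higher. Of the 6 RNAs retained in the nucleus, 6 rose in Bet+HMD against HMD, with a median log2 fold change of 2.64, and their summed level was 98.5 to 143.8 FPKM in HMD, 84.0 to 138 FPKM in Con and 899.6 to 954 FPKM in Bet+HMD. Ribosomal protein genes summed to 5039 to 6050 FPKM in HMD, 5331 to 8012 FPKM in Con and 2334 to 2751 FPKM in Bet+HMD. Of 6 astrocyte markers 2 were lower and 0 higher, with sums of 395 to 426 FPKM in HMD and 348 to 372 FPKM in Bet+HMD. Of 6 microglial markers 3 were lower and 0 higher, with sums of 95.1 to 115 FPKM in HMD and 86.1 to 89.5 FPKM in Bet+HMD. Of 6 neuronal markers 3 were lower and 1 was higher, and of 7 tested thalamus markers 4 were lower and 0 higher, with sums of 52.0 to 115 FPKM in HMD and 37.5 to 38.2 FPKM in Bet+HMD. Of 5 endothelial markers 2 were lower and 0 higher, with sums of 52.5 to 59.6 FPKM in HMD and 43.2 to 45.9 FPKM in Bet+HMD. Of 5 blood markers 2 were lower and 0 higher, Hbb-bs (-0.87) and Hba-a2 (-3.56), with sums of 149 to 233 FPKM in HMD and 72.2 to 122 FPKM in Bet+HMD. Of 7 hippocampal markers 1, Fibcd1, was lower (-0.80, adjusted p = 0.000893) and 0 were higher. Of 7 tested markers of the striatum 2 were lower and 1 was higher, and of 5 markers of the choroid plexus 0 were called by limma, 0 at an unadjusted p under 0.05, with sums of 866 to 2570.1 FPKM in HMD and 934 to 1207 FPKM in Bet+HMD. The part of each in the change of Mog, Cnp, Cldn11 and Mal was not tested.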

How the data were processed

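Total RNA of the hippocampus was sequenced in 9 mice. Per the submitters' processing notes the reads were aligned with HISAT2 2.1.0 to mm10 and counted with featureCounts 1.5.0-p3. The authors deposited FPKM per gene in 2 tables, with gene lengths in bases as another value. In the 6 shared samples the reads recovered for a member differed between tables by up to 6.43%, so tests stayed within a table. Columns headed COL were read as Con, an inferred match. FPKM times length gave whole reads (within 0.05 of a read) for 100% of values. The floor of 3 reads, at most 1.87e-05% of a library, covers counting error only, since reads carry no molecular identifiers.

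log2(FPKM + 1) of genes with a mean of at least 1 FPKM was fitted with limma 3.58.1 in R 4.3.3 (2 groups per fit, moderation with an intensity trend, two-sided, Benjamini-Hochberg over all genes, threshold 0.05), in place of the count tools of the study. The scale understates changes of low genes. Fits were also run on simulated counts with the same scatter for every gene and group. That simulation does not cover groups of unlike spread, so it cannot check the fits with Bet+HMD in this respect. With 3 samples against 3 an exact permutation test cannot go below 0.1, and p-values and limma intervals measure the spread between mice, housed 2 per cage. Each fit pools the spread of its 2 groups, which was unlike where Bet+HMD took part. Chi-square per degree of freedom between library pairs was 3.00 to 4.21 in Bet+HMD, 11.8 to 22.2 in HMD and 22.8 to 42.2 in Con (later table). Whether the Bet+HMD libraries hold the usual spread between mice was not tested. The members and lists were chosen with earlier results of these data known. All 9 members are named, and from other lists the genes of smallest p, at most 4 per comparison. Genes of like pattern were the 6 of smallest root mean square difference, of which 1 is not reported here. Alternatives were a pseudocount of 0.1, no filter or 5 FPKM, TPM, quantile normalisation, median centring, no trend, 3 groups in a fit, a replicate block, limma voom on recovered reads, the later table, and leaving out each sample.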

Additional observations from a re-analysis of the deposited data

How the results depend on the processing

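HMD against Con gave 0 called members and 0 called further myelin genes under every setting run. The count of called members against HMD ran from 4 to 6 over all settings, and Mog, Cnp and Cldn11 were lower in each. Against Con it was 1 under TPM and 1 under quantile normalisation, and 1 to 5 when single samples were left out. With all samples kept, the sizes depended on the setting. Log2 differences against HMD ran from -0.98 to -0.75 for Mog and from -0.66 to -0.29 for Cnp. Those of Cldn11 ran from -0.70 to -0.31 and those of Mal from -0.64 to -0.25. Against Con the ranges were -0.98 to -0.71 for Mog and -0.72 to -0.32 for Cnp. For Cldn11 they were -0.55 to -0.13 and for Mal -0.53 to -0.093. The mean log2 level of the 9 genes differed by -0.085 under TPM and by 0.00085 under quantile normalisation for Bet+HMD against HMD, and by 0.013 under quantile normalisation against Con. Called further myelin genes against Con numbered 5 with no filter, 5 under TPM and 4 to 13 when single samples were left out, and against HMD 7 to 14 when single samples were left out. Differences of members that were not called changed sign: under TPM Mbp (0.17) and Mobp (0.019) against HMD and Mbp (0.22) and Mobp (0.10) against Con, under quantile normalisation Mbp (0.38) and Mobp (0.22) against HMD and Mbp (0.43) and Mobp (0.33) against Con, and under median centring Mbp (0.023) against Con. The cause was not tested. A filter at 5 FPKM called 4166 of 7549 genes tested against HMD and 3260 of 7585 against Con. The main fits called 6607 of 13672 and 5422 of 13643, so that the filter called a larger share of fewer genes.

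When single samples were left out, log2 differences between HMD and Con ran from -0.12 to 0.33 for Mbp, -0.16 to 0.15 for Mog, -0.21 to 0.14 for Mag, -0.13 to 0.35 for Mobp, -0.22 to 0.14 for Cnp, -0.0021 to 0.25 for Cldn11, -0.063 to 0.23 for Mal and -0.13 to 0.18 for Ermn. Against HMD Mbp ran from -0.21 to 0.074, and against Con Mbp ran from -0.17 to 0.30, Mag from -0.071 to 0.29, Mobp from -0.32 to 0.17 and Opalin from -0.39 to 0.076.

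The replicate numbers of the titles mark different mice. For this reason they were not taken to pair samples. Deviations of same-numbered samples correlated by -0.06, 0.35 and 0.32 between HMD and Con. They correlated by 0.02, -0.10 and -0.15 between Bet+HMD and HMD and by -0.05, -0.09 and -0.18 between Bet+HMD and Con. Of 6 samples 4, 1 and 0 correlated best with their own number. With the replicate block, called members numbered 0, 4 and 3 and called further myelin genes 0, 8 and 6 in these comparisons, Mal against Con being lost (adjusted p = 0.0582), and all called genes 0, 5615 and 3924. Between HMD and Con the block raised the genes with a limma unadjusted p under 0.05 from 592 to 1034 of 12989. The count tests edgeR and DESeq2, planned for recovered reads, were not run, because the values deposited are FPKM. Depth limits Opalin most, with 216 to 537 reads per library.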
